A study of Mus musculus with 12 samples.

Results

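The 9 genes described here encode the principal electrolyte transporters of the colonic epithelium. They were taken by name from the 38924 genes counted in each library: the sodium channel subunits Scnn1a, Scnn1b and Scnn1g, the sodium-hydrogen exchangers Slc9a2 and Slc9a3, the chloride-bicarbonate exchanger Slc26a3, the chloride channel Cftr, the sodium-potassium-chloride cotransporter Slc12a2, and the proton-potassium pump subunit Atp12a. All 9 were matched by symbol and all 9 passed the filter on low counts. RNA was sequenced from the proximal colon of 12 mice, 6 of them APC Min/+ and 6 WT. The aim was to ask whether gene expression differed by genotype before neoplasia. The mice were 6 week-old C57BL/6 females. APC Min/+ mice carry a truncating germline mutation in one copy of Apc, the tumor suppressor that restrains Wnt signaling, and no adenomas were detectable at this age. WT mice lack the mutation and were housed in cages of their own, so that genotype and cage cannot be told apart. Each library came from 1 mouse.

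The colon recovers sodium, chloride and water from the luminal content. In its proximal segment most sodium enters through electroneutral sodium-hydrogen exchange coupled to chloride-bicarbonate exchange, whereas in the distal segment sodium also enters through the epithelial sodium channel ENaC under the control of aldosterone, and a colonic proton-potassium pump recovers potassium. Chloride secretion runs the other way: a basolateral cotransporter loads the cell and an apical channel releases chloride into the lumen. Regional identity along the colon is read from the posterior Hox genes, of which Hoxb13 is a marker of the distal end.

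The libraries held between 50313805 and 197914821 counts assigned to genes, and 3 counts corresponded to 0.0152 to 0.0596 counts per 1000000 counts of the library (CPM), and each transporter was above this in every mouse. CPM values below were scaled by the trimmed mean of M-values (TMM). The APC Min/+ libraries M10_2 and M13_1 stood apart. Hoxb13 reached 378 CPM in M10_2 and 275 in M13_1, but was at 0 to 0.744 CPM in the other 10 mice, of which 4 had no count. The gap between these clusters on the log2 scale was 8.50, and the next widest gap was 1.16. Hoxa13, another posterior Hox gene, was at 76.5 and 61.8 CPM in the pair and at 0.921 to 2.75 CPM elsewhere. All libraries are labelled proximal colon, so for M10_2 and M13_1 these genes went against the regional label, and the genotype differences below are given with and without them. The summed smooth muscle markers, from 4391 to 6959 CPM, were present in every library although the tissue is labelled mucosa. The paper describes sections of the proximal colon put into RNAlater, and names no step that set the mucosa apart.

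Atp12a, the catalytic subunit of the colonic proton-potassium pump, had the widest span of the 9 genes. It lies on chr14 at positions 56365068 to 56388550 on the plus strand of GRCm38. The Atp12a level was 997 CPM in M10_2 and 983 in M13_1. Among the other APC Min/+ mice it ranged from 1.44 CPM in M2_A to 7.77 CPM in M8_2, and in the 6 WT mice from 2.13 to 6.00 CPM with a median of 4.25 CPM. The lower of the pair was thus 127-fold above the highest of the other 10 mice, and no value lay between. For a ranking by this ratio, the highest other mouse was taken as at least 0.0596 CPM. Atp12a then ranked 9 among the 2391 genes that were higher in both of these mice than in all others. Of 20311 genes tested, 11.8% were higher in both mice than in the other 10, and 12.2% were lower in both.

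ENaC is assembled from an alpha, a beta and a gamma subunit, encoded by Scnn1a, Scnn1b and Scnn1g. Scnn1b and Scnn1g are neighbours on the plus strand of chr7, where Scnn1g occupies 121734479 to 121768475 and Scnn1b 121865038 to 121918514. Scnn1b overlaps Cog7 on the opposite strand, and whether reads were counted by strand is not given in the sources used here. Among the other members, Slc26a3 overlaps the pseudogene Gm9359 on its own strand. Cftr overlaps Gm15592 on the opposite strand and the pseudogene Gm15595 on its own. Scnn1b and Scnn1g both lay above the other 10 mice in M10_2 and M13_1. So did Fxyd4, an ENaC-pathway gene considered further on, and Slc26a3 did not. The 250 bases before the RefSeq start site of these 4 genes (GRCm38.p6) are shown for this reason, read 5′ to 3′ on the strand of the gene, with capitals marking the motif matches described after them.

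Scnn1b, plus strand, chr7:121864788-121865037: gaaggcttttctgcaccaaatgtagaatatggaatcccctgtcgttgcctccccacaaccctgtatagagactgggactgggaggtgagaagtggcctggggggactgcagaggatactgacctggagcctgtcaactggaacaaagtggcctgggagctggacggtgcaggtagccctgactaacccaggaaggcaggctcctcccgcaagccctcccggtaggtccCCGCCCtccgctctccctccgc

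Scnn1g, plus strand, chr7:121734229-121734478: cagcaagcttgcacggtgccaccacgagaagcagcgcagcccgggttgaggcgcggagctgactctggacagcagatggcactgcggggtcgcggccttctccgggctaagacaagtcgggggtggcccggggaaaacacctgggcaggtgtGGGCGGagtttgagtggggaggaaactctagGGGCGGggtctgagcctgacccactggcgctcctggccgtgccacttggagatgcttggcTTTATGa

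Slc26a3, plus strand, chr12:31437969-31438218: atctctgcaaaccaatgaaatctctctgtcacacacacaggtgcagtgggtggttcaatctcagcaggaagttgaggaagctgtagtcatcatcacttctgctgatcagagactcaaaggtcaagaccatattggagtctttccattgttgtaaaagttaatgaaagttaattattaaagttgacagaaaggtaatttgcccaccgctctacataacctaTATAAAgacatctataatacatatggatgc

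Fxyd4, minus strand, chr6:117937336-117937585: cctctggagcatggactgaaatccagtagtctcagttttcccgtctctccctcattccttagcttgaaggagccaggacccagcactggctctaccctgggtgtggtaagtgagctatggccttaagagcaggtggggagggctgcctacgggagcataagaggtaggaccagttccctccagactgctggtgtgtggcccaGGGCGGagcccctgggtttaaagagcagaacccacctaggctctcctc

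Both strands of these windows, and of the same window in all 32851 RefSeq promoters, were searched for 6 motifs. The posterior HOX13 forms CAATAAA and TCGTAAA, held by 4.2% and 0.478% of all promoters, had no match in the 4 windows, nor had the steroid receptor half-site TGTTCT, held by 5284 of the 32851. The caudal-type (CDX) core TTTATG was found once, in Scnn1g, ending 2 bases before the start, and is held by 10.8% of promoters. The TATA box TATAAA occurred once, in Slc26a3 at 30 to 25 bases before the start, and is held by 12.4%. The GC box GGGCGG, held by 32.7%, was present in Scnn1b once, in Scnn1g at 2 places and in Fxyd4 once. No matches overlapped in these 4 windows. The Slc26a3 gene begins at 31390871 in the GENCODE M21 annotation. Its window, set by the RefSeq start, thus lies inside that gene model and not at its 5′ end. The Slc26a3 window had the lowest GC content of the 4, 38.8%, against 60.8% for Scnn1b, 65.2% for Scnn1g and 58% for Fxyd4. Of the other members, Slc9a3 and Cftr had a promoter in the table, and the motif matches there were GC boxes, 3 in Slc9a3 and 6 in Cftr. Scnn1a, Slc9a2, Slc12a2 and Atp12a were not matched.

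Scnn1g showed the widest relative span of the ENaC subunits. Its level was 14.9 CPM in M10_2, 28.9 in M13_1, and 0.147 to 2.84 CPM in the other 10 mice, with a median of 0.900 CPM. The lower of the pair was 5.24-fold above the highest other mouse, the WT mouse M18_b. Scnn1a was at 249 and 185 CPM in M10_2 and M13_1, against 23.8 to 66.5 CPM elsewhere (median 55.9), a ratio of 2.78 between the lower of the pair and the highest other mouse. Scnn1b was at 27.6 and 26.0 CPM, against 6.77 to 11.4 CPM elsewhere (median 8.92), a ratio of 2.29. For each of the 3 subunits M10_2 and M13_1 therefore held the highest 2 places of the 12 mice, while the other APC Min/+ and the WT mice overlapped.

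The relative abundance of the subunits also differed. Per kilobase of exon, Scnn1b exceeded Scnn1g by a ratio of 4.06 to 60.5 in the 10 mice with low Hoxb13 (median 12.7), whereas the ratio was 2.299 in M10_2 and 1.12 in M13_1. Scnn1a exceeded Scnn1g by 14.3 to 117 in the 10 mice (median 35.5) and by 12.1 and 4.63 in the pair. The ratio of Scnn1a to Scnn1b was 1.29 to 4.15 in the 10 mice, and 5.27 and 4.14 in the pair, so only M10_2 lay outside that range.

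**Figure D1:**
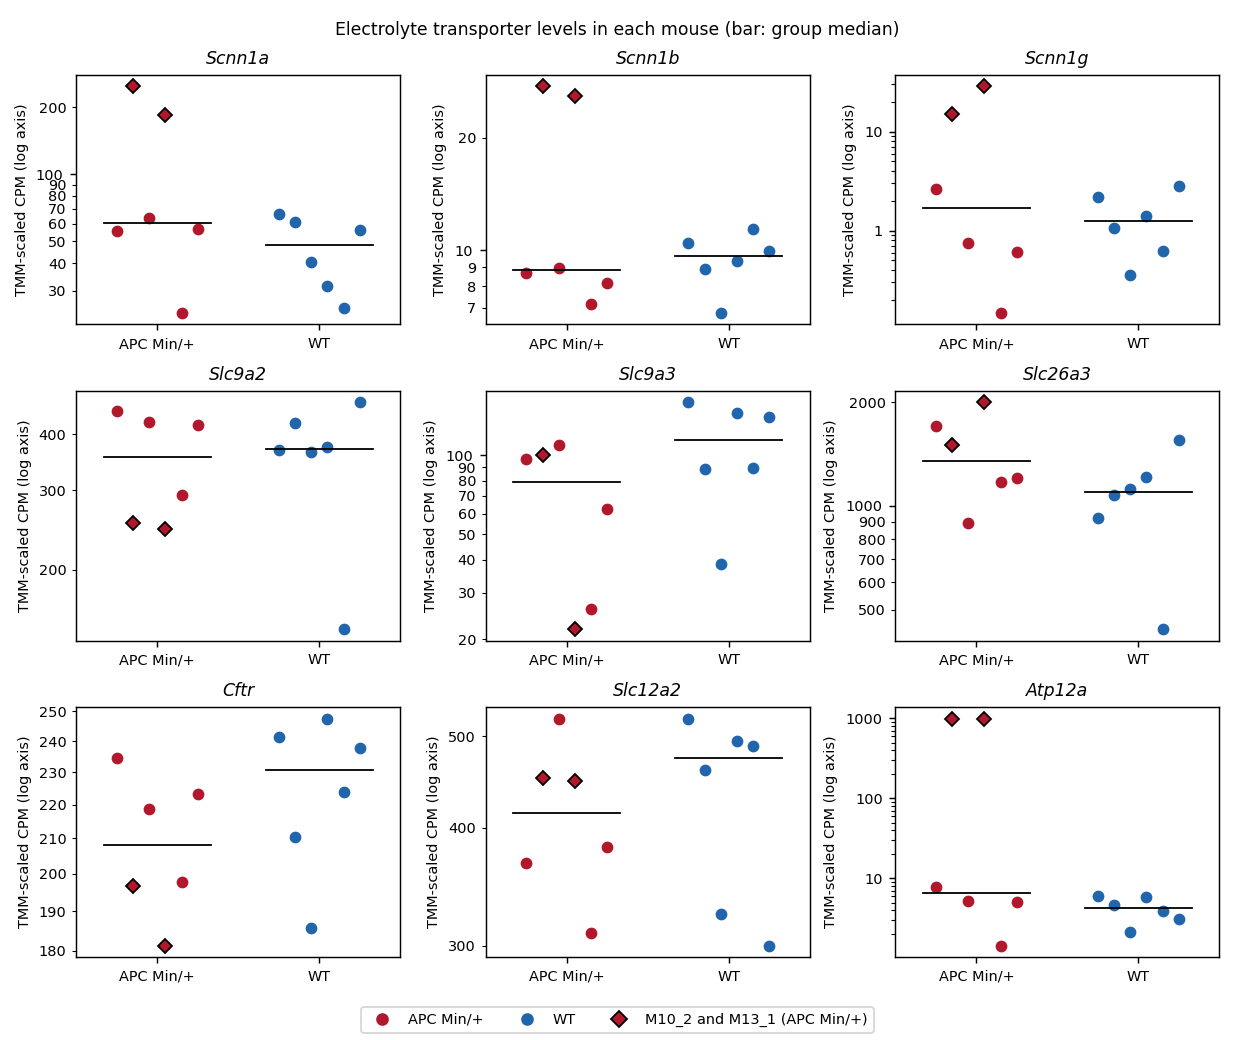
TMM-scaled CPM (log axis, a separate scale for each gene) of the 9 transporters in each of 6 APC Min/+ and 6 WT mice; points are mice, diamonds are M10_2 and M13_1, and bars are group medians. The diamonds lie above every other mouse for Scnn1a, Scnn1b, Scnn1g and Atp12a, and within or at the lower edge of the other mice for Slc9a2, Slc9a3 and Cftr.

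The sodium-hydrogen exchangers were not, like the ENaC subunits, highest in M10_2 and M13_1. Slc9a2 (NHE2) had 255 CPM in M10_2 and 246 in M13_1, within the 147 to 471 CPM of the other 10 mice (median 396). Only the WT mouse M17_1, at 147 CPM, was below the pair. The lowest of the remaining mice was the APC Min/+ mouse M2_A at 293 CPM, so the pair was below all mice but M17_1. The next lowest WT mouse after M17_1 was at 365 CPM. Slc9a3 (NHE3), the main apical exchanger for sodium absorption, was at 100.2 CPM in M10_2 and at 21.8 CPM in M13_1. M13_1 was the lowest of all 12 mice for Slc9a3, followed by the APC Min/+ mouse M2_A at 26.0 CPM and the WT mouse M16_1 at 38.5 CPM, and the highest was the WT mouse M17_2 at 159 CPM. The Slc9a2 to Slc9a3 ratio per kilobase was accordingly 1.81 in M10_2 and 8.06 in M13_1, beside 1.18 to 8.04 in the other mice.

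Slc26a3 (DRA), which takes up chloride in exchange for bicarbonate, had 1500.2 CPM in M10_2 and 1998 in M13_1, against 438 to 1699 CPM in the other 10 mice. M13_1 was the highest mouse and M17_1 the lowest. When counts were divided by the summed epithelial markers instead of the library size, Slc26a3 was above the other mice in both M10_2 and M13_1. On this scale 5 of the 9 members were above instead of 4, but the share of all genes on it is not given. The summed markers include Cdx2 and Krt20, which were lower in both mice.

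Cftr, the apical chloride channel, varied least. It ranged from 181 CPM in M13_1 to 248 CPM in the WT mouse M18_2a. In the 10 mice with low Hoxb13 the standard deviation (SD) of Cftr was 0.13 on the log2 scale, at the 11.3 percentile of the 14783 genes with a mean of at least 1 CPM. Scnn1g, with an SD of 1.16, was at the 98.9 percentile, Slc9a3 at 98.1, Atp12a at 97.0 and Scnn1a at 93.2 on the same measure. Slc12a2 (NKCC1), the basolateral loader of chloride, was at 451 and 448 CPM in M10_2 and M13_1, within the 300.0 to 522 CPM of the others.

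Of the 9 members, 4 (44.4%) were higher in M10_2 and M13_1 than in all other mice and 0 were lower, beside the 11.8% and 12.2% of all tested genes. The members were chosen with these results known, so the share describes the list and is not evidence about it. The number of members higher in both mice was 4 on unscaled totals and with DESeq2 size factors also. The share of all genes under those scalings is not given. Other markers differed in the same pair of libraries. The summed small intestine markers were 78.2 and 80.9 CPM against 353 to 831 CPM, with 4 of 8 genes lower in both and Apoa4 at 0 in both. All 4 fat markers were lower in both, summing to 24.2 and 44.5 CPM against 51.9 to 682 CPM. The smooth muscle markers Des and Cnn1 were higher in both, while the summed list overlapped (5673 and 6172 CPM, others 4391 to 6959). Of the 5 fibroblast markers only Col3a1 was higher in both (summed 2720 CPM in M10_2 and 2164 in M13_1, others 975 to 2326). Of the goblet cell markers Tff3 and Clca1 were higher and Muc2 and Spdef lower in both (summed 16195 and 8999.8 CPM, others 6854 to 14202), and of the crypt markers Ascl2 and Smoc2 were higher (summed 300.2 and 324 CPM, others 274 to 367). The leukocyte markers Cd3e and Jchain and the glial marker S100b were lower in both (leukocyte markers summed to 130.4 and 105 CPM, others 125 to 831). The summed epithelial markers, 10061 and 8675 CPM, lay within the 7424 to 14121 CPM of the others, with Cdh1 higher and Cdx2 and Krt20 lower in both. The part of these markers in the transporter values was not tested. In bulk tissue, fewer cells of a type and less RNA per cell cannot be told apart.

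Compared per kilobase of exon (RPKM), Slc26a3 was the most abundant of the 9 genes, with a median of 186 over the 12 mice. It was followed by Slc9a2 at 106, Slc12a2 at 68.9, Slc9a3 at 37.3, Cftr at 28.4, Scnn1a at 13.7, Scnn1b at 3.80, Atp12a at 1.32 and Scnn1g at 0.414. Slc26a3 was above Slc9a2 in 12 of 12 mice, and Scnn1a above Scnn1b in 12 of 12. Slc9a3 was above Cftr in 8 of 12 mice, so these neighbours did not separate. In M10_2 and M13_1 the order changed: Atp12a reached 252 RPKM in M10_2, against at most 1.97 RPKM in the other 10 mice.

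**Figure D2:**
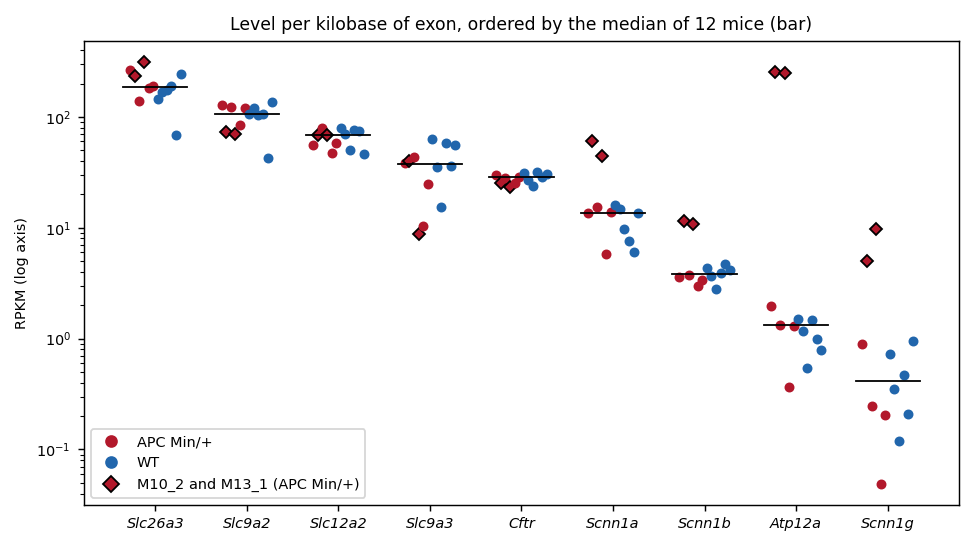
RPKM (log axis) of the 9 transporters in 12 mice, ordered by the median (bar); points are mice and diamonds are M10_2 and M13_1. Slc26a3 is the highest by median and Scnn1g the lowest, and in M10_2 and M13_1 Atp12a lies near the level of Slc26a3.

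APC Min/+ and WT mice were then compared with edgeR's quasi-likelihood test. No member was a DEG (a differentially expressed gene by the study's thresholds: false discovery rate, FDR, under 0.05, and 2-fold or more), and neither was any of the 20311 genes, so the background was 0% higher and 0% lower. The lowest FDR was 0.908, and 1071 genes had an unadjusted p under 0.05. DESeq2 called 27 genes and the edgeR exact test 12, by the same thresholds. The study also used edgeR with these thresholds, without naming the test. It listed Atp12a among its DEGs, and also Fxyd4 and Best4-ps, which are considered further on, all as higher in APC Min/+. The 6 APC Min/+ mice lay above all 6 WT mice for 0.0443% of genes and below for 0.0739%, and the groups overlapped for all 9 members.

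Atp12a had the largest genotype difference of the members. Its mean was 333 ± 509 CPM (SD, n = 6) in APC Min/+ and 4.26 ± 1.51 CPM (SD, n = 6) in WT. The log2 fold change was 6.29 with a standard error (SE) of 1.62, an unadjusted edgeR p of 0.0018 and an FDR of 0.908. Each edgeR SE given here was derived from the test, as the absolute log2 fold change over the square root of its F statistic. The SE that DESeq2 estimated for Atp12a was 1.27. DESeq2 gave Atp12a an FDR of 0.0023 and the edgeR exact test an FDR of 0.044. As a difference of the group means of log2(CPM + 0.1), which weights each mouse equally, it was 2.68 (exact two-sided permutation p = 0.208), and 2.61 when scaled to the epithelial markers (exact permutation p = 0.271). Without M10_2 and M13_1 the edgeR log2 fold change was 0.21 ± 0.40 (SE), with an FDR of 0.9999. The call for Atp12a thus depended on the tool, and its size on these mice.

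The fold changes of the ENaC subunits also depended on these mice. Scnn1g was at 7.99 ± 11.7 CPM in APC Min/+ and 1.41 ± 0.946 CPM in WT (SD, n = 6 each), with a log2 fold change of 2.51 ± 1.05 (SE) that turned to -0.41 ± 0.69 without the pair. Scnn1a was at 106 ± 89.7 CPM against 46.9 ± 16.9 CPM, and its log2 fold change of 1.17 ± 0.49 went to 0.09 ± 0.31. Scnn1b was at 14.4 ± 9.61 CPM against 9.46 ± 1.58 CPM, and its log2 fold change of 0.61 ± 0.35 turned to -0.20 ± 0.15. The edgeR FDR was 0.908 for all 3 subunits in the 12 mice and 0.9999 without the pair, and DESeq2 gave 0.527 (Scnn1a), 0.835 (Scnn1b) and 0.550 (Scnn1g). As differences of mean log2(CPM + 0.1) they were 0.82 for Scnn1a, 0.38 for Scnn1b and 0.92 for Scnn1g (exact permutation p = 0.201, 0.403 and 0.442).

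For the other members the differences were below 1 on the log2 scale. Slc9a3 was at 69.3 ± 38.5 CPM in APC Min/+ and 110 ± 45.5 CPM in WT, a log2 fold change of -0.66 ± 0.43 (SE; -0.58 ± 0.42 without the pair, FDR 0.908 and 0.9999 by edgeR). Slc26a3 was at 1411 ± 402 against 1054 ± 368 CPM, a log2 fold change of 0.42 ± 0.27, or 0.24 ± 0.28 without the pair. Cftr, at 209 ± 19.9 against 224 ± 23.2 CPM, differed by -0.11 ± 0.10 on the log2 scale (-0.04 ± 0.11 without the pair). Slc12a2 differed by -0.06 ± 0.17 (-0.13 ± 0.19 without the pair) and Slc9a2 by -0.04 ± 0.25 (0.15 ± 0.26 without the pair). The median log2 fold change of the 9 members was 0.42 and that of all tested genes -0.01.

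**Figure D3:**
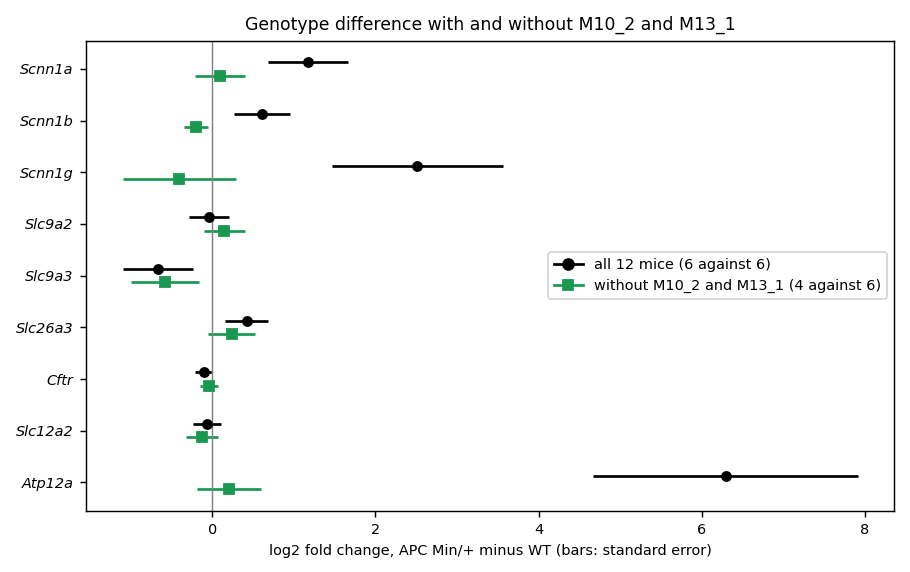
Log2 fold change of APC Min/+ over WT from edgeR for the 9 transporters, in all 12 mice (circles) and without M10_2 and M13_1 (squares). Bars are standard errors derived from the F statistic of the test. Atp12a moves from 6.29 to 0.21 and Scnn1g from 2.51 to -0.41, while Slc9a3 stays near -0.66 and -0.58.

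Within the 10 mice with low Hoxb13, the members were set against the residual Hoxb13 level. A pooled correlation over all 12 mice is not given, since the mice fell into 2 clusters. For Atp12a the Pearson r on log2(CPM + 0.1) was 0.67 (n = 10, two-sided permutation p = 0.029) and Spearman's rho was 0.79 (permutation p = 0.0090). The FDR for r over all tested genes was 0.351, and 13.2% of these genes had a permutation p under 0.05, so Atp12a did not pass. Leaving out the 2 mice farthest from the median Hoxb13 (M8_2 and M19_1) gave r = 0.62, and r was 0.57 within the 6 WT mice. M8_2 was the highest of the 10 mice for Hoxb13, Atp12a and Fxyd4, and r was 0.57 without it, with a permutation p of 0.103. With Hoxa13 in place of Hoxb13, r for Atp12a was -0.23. The other 8 members had r between 0.053 (Scnn1b) and 0.44 (Scnn1g), with permutation p from 0.183 to 0.884.

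A library-wide measure moved with some members in the same mice. It was computed from the levels of 14796 genes in these same libraries, the members included. Its relation to the members is thus not independent of them, and whether it is technical was not tested. The libraries differed in how a gene's level depended on its GC content, from a slope of -0.39 log2 units per 10 percentage points of GC in the WT mouse M17_1 to 0.19 in M10_2. Scnn1a, whose longest transcript is 56.7% GC, correlated with this slope over the 10 mice (Pearson r = 0.91, permutation p = 0.00066, FDR over all tested genes 0.0060; Spearman's rho = 0.76, permutation p = 0.015), and r was 0.89 without the 2 farthest mice, M17_1 and M18_2a. Slc9a2, at 53.5% GC, had r = 0.84 (permutation p = 0.0039, FDR 0.019) and rho = 0.66 (permutation p = 0.044), and r = 0.72 without those mice. Of all tested genes 30.0% passed an FDR of 0.05 in this relation. For the other members the FDR was 0.143 to 0.955 over the 10 mice. Without M17_1 and M18_2a, however, their r with the slope was 0.88 for Atp12a, 0.87 for Slc9a3, 0.86 for Scnn1g, 0.74 for Scnn1b, 0.67 for Cftr, 0.61 for Slc12a2 and 0.04 for Slc26a3. Hoxb13 itself had r = 0.48 with the slope (n = 10, permutation p = 0.163; Spearman's rho = 0.67, permutation p = 0.041), and r = 0.65 without those mice, and the part of the slope in the relation of Atp12a to Hoxb13 was not tested. The slope was 0.19 in M10_2 and -0.04 in M13_1, and Scnn1a was above the other mice in both. With the slope as a covariate and without the pair, the SE of the Scnn1a genotype difference was 0.14 and the log2 fold change -0.06. The part of GC content in the values was not tested further.

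**Figure D4:**
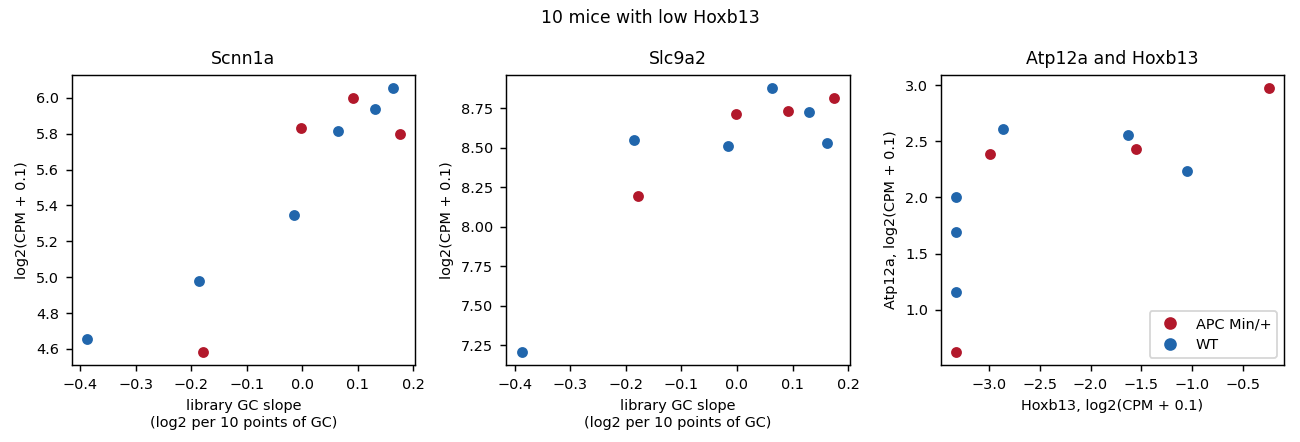
Log2(CPM + 0.1) of Scnn1a and Slc9a2 against the GC slope of each library (left and centre), and of Atp12a against Hoxb13 (right), in the 10 mice with low Hoxb13; each point is a mouse, coloured by genotype. M17_1 has the lowest slope and the lowest Slc9a2, and 4 mice without a Hoxb13 count share the left edge of the right panel.

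Among the 36 pairs of members in these 10 mice, 5 passed an FDR of 0.05 over the pairs by Pearson r and 0 passed also by Spearman's rho. The share of all gene pairs with such an r was not taken, so the count does not set the members apart from other genes. The pairs were Slc9a3 with Scnn1g (r = 0.87, permutation p = 0.00059, FDR 0.021, rho = 0.82), with Cftr (r = 0.87, permutation p = 0.0017, FDR 0.030, rho = 0.88) and with Scnn1b (r = 0.82, permutation p = 0.0042, FDR 0.038, rho = 0.77), Scnn1g with Cftr (r = 0.81, permutation p = 0.0041, FDR 0.038, rho = 0.77), and Scnn1a with Slc9a2 (r = 0.74, permutation p = 0.0054, FDR 0.039, rho = 0.53). The rho of these pairs had FDR of 0.067 to 0.278 over the 36. Without the 2 mice farthest from the median of one gene of the pair, r was 0.75, 0.70, 0.95, 0.76 and 0.47, in that order. After the GC slope was removed from both genes, r for Scnn1a with Slc9a2 was -0.12, and it was 0.88 to 0.90 for the other 4 pairs.

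The genes most like each member over the same 10 mice, among 14782 with a mean of at least 1 CPM, were taken by Pearson r as a description. They were Tmem63a and Kdm6b for Scnn1a (r = 0.996 and 0.988), Herpud1 and Hif3a for Scnn1b (r = 0.94 and 0.91), and Ears2 and Urb1 for Scnn1g (r = 0.95 and 0.94). For Slc9a2 they were Ppp2r5e and Slc30a1 (r = 0.996 and 0.993), for Slc9a3 Tfcp2l1 and Map3k6 (r = 0.97 and 0.95), and for Slc26a3 Ahcyl2 (r = 0.99). Cftr was followed most closely by Sdad1 and Zbtb16 (r = 0.88 and 0.88), Slc12a2 by Kit and Pclo (r = 0.98 and 0.98), and Atp12a by Atxn7 and Prdm10 (r = 0.96 and 0.95).

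The members work with regulators and partner transporters, for which 8 lists of 63 genes were used, 61 of them tested. In M10_2 and M13_1, 11 of the 61 were above all other mice and 11 below, beside the 11.8% and 12.2% of all tested genes. By genotype 0 of the 61 were DEGs in edgeR's quasi-likelihood test, and 4 had an unadjusted p under 0.05 (6.56%, against 5.27% of all tested genes). The median log2 fold change of the 61 genes was 0.00.

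Of 15 genes of the ENaC and aldosterone pathway, Fxyd4 and Hsd11b2 were above in both mice and Nr3c1 and Stx1a below. Fxyd4, a regulator of the sodium-potassium ATPase, had 43.8 CPM in M10_2, 98.7 in M13_1, and 0 to 0.297 CPM elsewhere, with M8_2 the highest of these. Fxyd4 had the smallest genotype p of the list (log2 fold change 9.51 ± 2.43 SE, unadjusted p = 0.0017, edgeR FDR 0.908). This rests on M10_2 and M13_1: Fxyd4 had 0 counts in 6 of the other 10 mice and at most 58 in the rest, and without the pair it did not pass the filter on low counts. Hsd11b2, which inactivates glucocorticoids and so leaves the mineralocorticoid receptor to aldosterone, was at 377 and 257 CPM against 30.6 to 221 CPM. The glucocorticoid receptor Nr3c1 was at 131 and 140 CPM against 188 to 255 CPM. Nr3c2, the mineralocorticoid receptor, was at 205 and 203 CPM, within the 144 to 207 CPM of the others. Stx1a was at 3.38 and 2.76 CPM against 3.65 to 5.08 CPM.

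Of the 5 genes of the sodium-potassium ATPase list, which sets the gradients that the other transporters use, the beta subunit Atp1b1 was above in both mice, at 2160 and 1827 CPM against 629 to 1427 CPM, and Atp1b3 below, at 61.1 and 66.2 CPM against 69.9 to 93.6 CPM. The smallest genotype p of this list was that of Fxyd3 (log2 fold change -0.37 ± 0.20 SE, unadjusted p = 0.082, edgeR FDR 0.908), or -0.27 ± 0.22 without the pair.

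Of the 11 genes for potassium channels and potassium-chloride cotransport, 4 were above in both mice and 0 below, beside 11.8% and 12.2% of all tested genes. Kcnmb2, a regulatory subunit of the large-conductance channel, was at 0.747 and 0.729 CPM against 0.0245 to 0.147 CPM, and had the smallest genotype p of the list (log2 fold change 1.78 ± 0.64 SE, unadjusted p = 0.015, edgeR FDR 0.908; 0.24 ± 0.41 without the pair). Kcnn4 and Kcne3, parts of the basolateral potassium channels that sustain secretion, exceeded the highest other mouse by ratios of 1.06 and 1.04.

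Of the 9 proton and bicarbonate transporters tested, the sulfate-chloride exchanger Slc26a2 was above in both mice, at 2187 and 2277 CPM against 760 to 1426 CPM, and the sodium-bicarbonate cotransporter Slc4a7 was below, at 163 and 152 CPM against 164 to 363 CPM. Slc26a2 also had the smallest genotype p of the list, 0.101 (log2 fold change 0.45 ± 0.25 SE, edgeR FDR 0.908), and its log2 fold change was 0.01 ± 0.18 without the pair.

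Of the other chloride channels, 5 were tested. Best4-ps did not pass the filter on low counts, and was at 2.54 and 2.35 CPM in M10_2 and M13_1 and at 0 to 0.0602 CPM elsewhere. Ano1, a calcium-activated chloride channel, was at 363 and 355 CPM against 36.2 to 61.6 CPM, and the bestrophin Best2 at 98.9 and 67.4 CPM against 4.63 to 12.5 CPM. Clca4a and Clca4b, of the calcium-activated chloride channel regulator family, were lower, Clca4a at 197 and 246 CPM against 278 to 2915 CPM and Clca4b at 6.97 and 10.3 CPM against 14.3 to 96.9 CPM. The smallest genotype p was that of Best2 (log2 fold change 1.98 ± 0.69 SE, unadjusted p = 0.013, edgeR FDR 0.908), and its log2 fold change was -0.07 without M10_2 and M13_1.

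Guanylin raises Cftr activity and lowers sodium absorption through the guanylate cyclase C pathway. Of the 5 genes of this list, 4 were lower in both mice, beside 12.2% of all tested genes. Guca2a, which encodes guanylin, was at 315 and 185 CPM against 1155 to 1786 CPM. Guca2b, which encodes uroguanylin, was at 5.61 and 4.48 CPM against 8.93 to 23.4 CPM. Their receptor Gucy2c was at 281 and 257 CPM against 405 to 547 CPM. Prkg2, the cGMP-dependent kinase that acts on Cftr and Slc9a3, was at 1.42 and 3.62 CPM against 49.99 to 87.6 CPM, and the lowest of the other mice was 13.8-fold above the higher of the pair. Guca2b had the smallest genotype p of the list (log2 fold change -0.59 ± 0.28 SE, unadjusted p = 0.057, edgeR FDR 0.908), and its log2 fold change was -0.27 ± 0.20 without the pair.

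The 5 PDZ scaffolds of the brush border, which hold Slc9a3 and Cftr at the apical membrane, included none that lay outside the other mice in both M10_2 and M13_1, and their smallest genotype p was 0.577 (Ezr, log2 fold change 0.14 ± 0.24 SE, edgeR FDR 0.925, or 0.17 ± 0.28 without the pair). Of the 6 WNK and SPAK kinase genes, which regulate Slc12a2, Stk39 was above in both mice (42.4 and 43.7 CPM against 23.2 to 39.4 CPM) and Cab39l below (48.7 and 49.3 CPM against 57.6 to 72.2 CPM). Stk39 had the smallest genotype p of that list (log2 fold change 0.22 ± 0.13 SE, unadjusted p = 0.120, edgeR FDR 0.908), or 0.12 ± 0.14 without the pair.

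**Figure D5:**
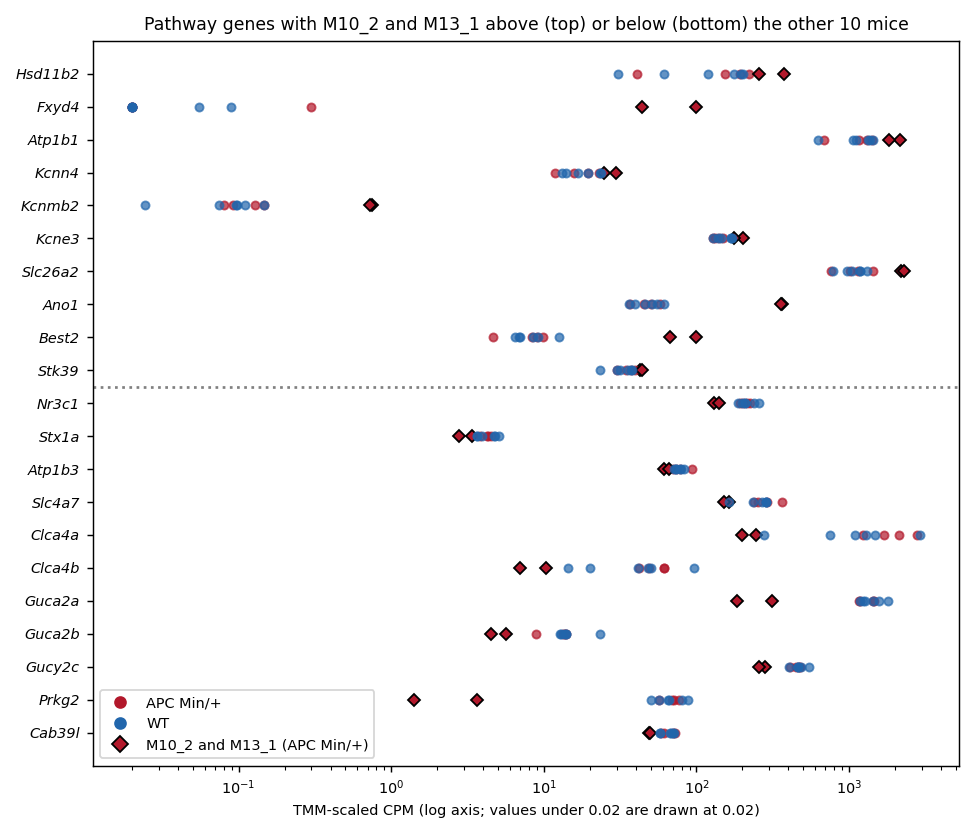
TMM-scaled CPM (log axis) of 21 pathway genes for which M10_2 and M13_1 (diamonds) were both above, or both below, the other 10 mice (circles, coloured by genotype). Fxyd4 has the widest gap among the 10 genes in the upper block and Prkg2 among the 11 in the lower block.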

How the data were processed

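RNA from the proximal colon of 12 mice (6 APC Min/+, 6 WT) had been sequenced. The deposited values are raw read counts per gene, which the authors made by aligning paired-end reads with STAR (v2.3.0) to mouse GRCm38.p2 and counting with featureCounts; the annotation release and strand setting are not given in the sources used here. The deposited files also give a gene length in bases, used for RPKM.

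Ensembl identifiers were matched to symbols for 37607 of 38924 genes. The members and lists were chosen with earlier results of these data known. Genes that reached 10 counts in 3 or more mice were tested with edgeR 4.0.16 (TMM, quasi-likelihood, Benjamini-Hochberg over 20311 genes, R 4.3.3), checked on simulated counts. DESeq2 1.42.0, the edgeR exact test, exact permutation of the 924 groupings, other scalings, each mouse left out, and a fit without M10_2 and M13_1 were alternatives. The library GC slope as a covariate was chosen after seeing the data. The relation to Hoxb13 was adjusted over all tested genes, not over the members. Correlations used 100000 permutations and a pseudocount of 0.1 CPM. Whether mice M10_2 and M13_1 lay outside the range of the other 10 was a description, with no test, since these mice were set apart by a measured value (the widest gap in Hoxb13). Genes were named by rule: all members, in each list the gene with the smallest genotype p and those for which both of these mice were outside the range of the others, and the 2 genes most like each member. Nr3c2 was added after its values were seen. A few genes that the rule names are not reported here. The GC slope of a library was the slope of 14796 genes' log2 deviations from their means on transcript GC content (GENCODE M21). Total counts per library, 50313805 to 197914821, set the counting error. The labels give no batch or shipment per mouse.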

Additional observations from a re-analysis of the deposited data

Results flagged for a closer look

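Slc9a2 in the 6 WT mice was flagged because M17_1, at 147 CPM, was far below the others, which ranged from 365 to 471 CPM. On the log2 scale the gap to the nearest mouse was 0.781 of the group's whole range, above Dixon's 95% critical value for 6 samples. Of 18 groups tested (9 members in each genotype) this was the only one, and chance flags about 1 in 20. M17_1 also had the lowest Slc26a3 (438 CPM), the lowest GC slope (-0.39) and the highest Sis (295 CPM) of the 12 mice. The part of the GC slope in the Slc9a2 value of M17_1 was not tested.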

How the results depend on the processing

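Genes changed by genotype numbered 0 in edgeR's quasi-likelihood test under every scaling, filter, covariate and omission tried. They numbered 27 with the DESeq2 Wald test and 12 with the edgeR exact test. Atp12a passed with DESeq2 (log2 fold change 6.29, FDR 0.0023) and the exact test (6.29, FDR 0.044), and over all its alternatives the FDR ran from 0.0023 to 0.9999. Without M10_2 and M13_1 the sign turned for Scnn1b (-0.20), Scnn1g (-0.41) and Slc9a2 (0.15), and with the GC slope added for Scnn1a (-0.057), Scnn1b (-0.19), Scnn1g (-0.96) and Slc9a2 (0.056); the cause was not tested.

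With 1 mouse left out in turn, the number of genes changed was 0 to 0, and the log2 fold changes ran from 0.72 to 1.38 (Scnn1a), 0.32 to 0.76 (Scnn1b), 1.45 to 2.86 (Scnn1g), -0.20 to 0.063 (Slc9a2), -0.84 to -0.48 (Slc9a3), 0.26 to 0.57 (Slc26a3), -0.14 to -0.07 (Cftr), -0.14 to 0.027 (Slc12a2) and 5.56 to 6.56 (Atp12a). The r with Hoxb13 in the 10 mice ran from 0.28 to 0.50 (Scnn1a), -0.16 to 0.27 (Scnn1b), 0.25 to 0.68 (Scnn1g), 0.38 to 0.57 (Slc9a2), 0.22 to 0.49 (Slc9a3), 0.082 to 0.50 (Slc26a3), 0.13 to 0.41 (Cftr), 0.25 to 0.62 (Slc12a2) and 0.57 to 0.75 (Atp12a), which had a permutation p over 0.05 without M8_2, M16_1 or M18_2a (r = 0.57, 0.63 and 0.66). With Hoxa13 in place of Hoxb13, r turned for Scnn1b (-0.37), Scnn1g (-0.27), Slc9a3 (-0.19), Cftr (-0.20) and Atp12a (-0.23); the cause was not tested.

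Since no member passed in edgeR's quasi-likelihood test with all 12 mice, keeping its side of the threshold says nothing about stability. No paired analysis was possible because replicate numbers are in accession order and pair no mice. In the 10 mice Scnn1g rested on 14 to 518 counts and Hoxb13 on 0 to 145, and counting error was not separated from the spread between mice.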
